A study of Mus musculus with 12 samples.

Results

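The platelet-derived growth factor (PDGF) family of the mouse testis was followed across control and Nr2f2-deleted pools at E14.5. It was taken as the genes with the symbols Pdgfa, Pdgfb, Pdgfc, Pdgfd, Pdgfra and Pdgfrb in the count table, which are 6 of its 24470 genes and encode the 4 ligands and the 2 receptors. All 6 passed the filter on low counts that left 15572 genes for testing. Control pools were Nr2f2 f/f, with no Cre in their label, and conditional knockout (cKO) pools were Wt1 CreER x Nr2f2 f/f, with 6 pools of 3 testes in each group and 1 RNA-seq library per pool. Pregnant females of both groups were given tamoxifen, which activates CreER in cells that use the Wt1 promoter, and the deletion was incomplete. No group carried Wt1 CreER with an intact Nr2f2, so that effects of the Cre or of the targeted Wt1 allele cannot be told apart from the loss of Nr2f2. Nr2f2 (COUP-TFII) encodes an orphan nuclear receptor of the non-steroidogenic interstitial cells. The sources do not say that the pools came from separate litters, so p-values measure the spread between pools.

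PDGF ligands are secreted as dimers that bring together pairs of receptor tyrosine kinases. PDGF-A is cleaved inside the cell by furin-like proteases and signals through the receptor PDGFRA, whereas PDGF-B also binds PDGFRB. PDGF-C and PDGF-D are secreted in a latent form with a CUB domain that must be cut off outside the cell, by tissue plasminogen activator (Plat) for PDGF-C and by urokinase (Plau) for PDGF-D. In the fetal testis, PDGFRA is found in interstitial cells and is needed for cord formation and for fetal Leydig cells, with PDGF-A coming from the Sertoli cells. PDGFRB is the receptor of pericytes and other mural cells, which are recruited by PDGF-B from the endothelium.

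Levels are given as CPM, the read count scaled to the size of its library after TMM factors. Log2 fold changes compare cKO with control in edgeR (quasi-likelihood test), each with its standard error (SE) and a p-value adjusted over all genes tested by the Benjamini-Hochberg method, called below 0.05. Nr2f2 itself had 163 to 186 CPM in the control pools and 50.2 to 119 CPM in the cKO pools (log2 fold change -1.21, SE 0.16, adjusted p = 0.000548). Total counts ran from 7044531 to 59404778 per library. Xist, the RNA of the inactive X chromosome of XX cells, exceeded 100 CPM in 1 control library (replicate 1) and 3 cKO libraries (replicates 3, 5 and 6) and was at most 7.68 CPM in the other 8 libraries. The summed level of 9 ovarian and meiotic markers was 264 to 481 CPM in those 4 libraries and 114 to 149 CPM in the other 8. The labels call all 12 pools testis. Whether those 4 pools held XX gonads was not tested, and group means over all libraries include them. Separately, control replicates 1, 5 and 6 had 330.1 to 446 CPM of the glycolytic gene Ldha, against 187 to 239 CPM in all other libraries. The comparison was therefore repeated in the 8 libraries with low Xist and in the 9 libraries without these 3 controls, and values from them are given beside the results. The second set was chosen after the values had been seen. Sertoli markers, as a check of the tissue, summed to 1140 to 1700 CPM in control and 1126 to 1703 CPM in cKO pools. None of the 10 passed the test. Among the cKO pools this sum was 1126 to 1359 CPM in the 3 with high Xist and 1571 to 1703 CPM in the other 3. Control replicate 1, with high Xist, had 1403 CPM, inside the range of the other controls.

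Of the 6 PDGF genes, Pdgfc alone passed the test, with a lower level in the cKO testes. Over all genes tested 8.13% passed it, with 4.85% lower and 3.28% higher in cKO testes, and 1 of 6 members is to be read against that share. The other 3 ligands and both receptors did not pass. Pdgfra, Pdgfrb, Pdgfa and Pdgfd had lower means in the cKO group, and Pdgfb had a higher mean.

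**Figure D1:**
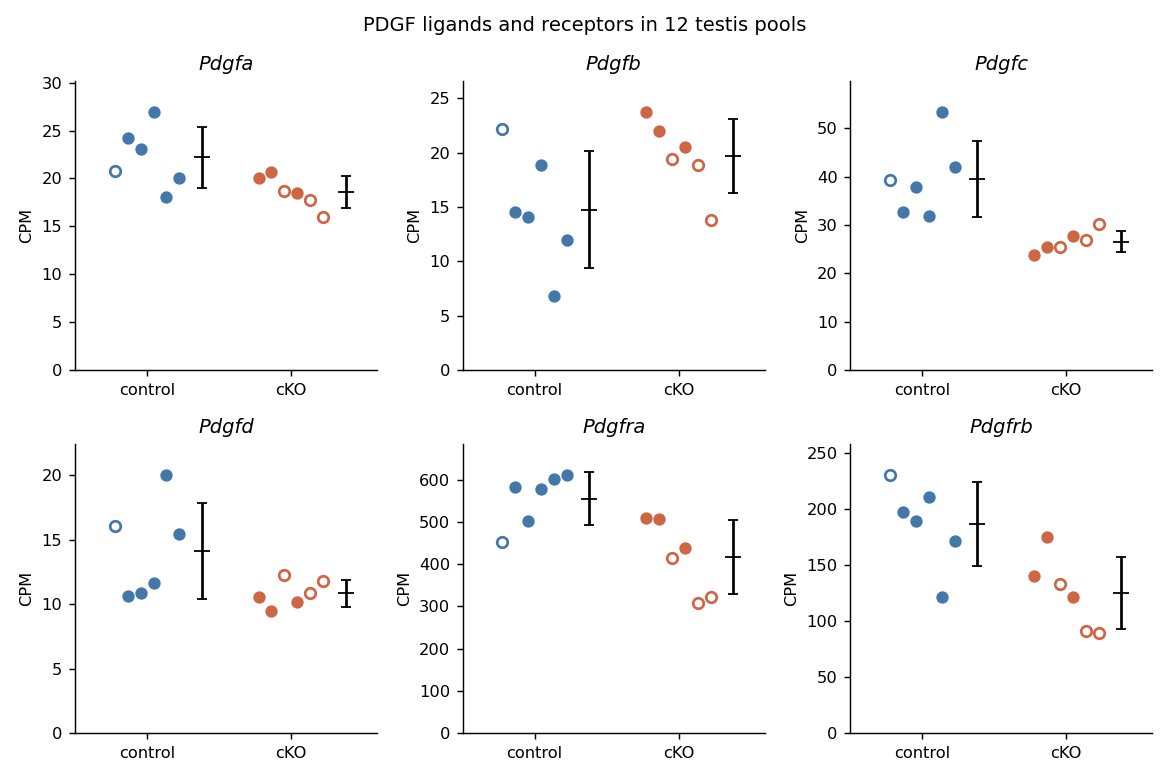
CPM of the 6 PDGF genes in each pool, with control replicates 1 to 6 and then cKO replicates 1 to 6 from left to right in each group. Open circles are the 4 libraries with Xist above 100 CPM, and the horizontal mark with its bar is the mean ± SD of the 6 pools. Pdgfc is the gene whose 6 cKO pools (23.8 to 30.2 CPM) all lie below the 6 control pools (31.9 to 53.3 CPM).

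Pdgfc (Entrez Gene 54635, chr3:81036416-81214031 of mm10, plus strand) encodes PDGF-C, a latent ligand of PDGFRA. Its level in control replicates 1 to 6 was 39.2, 32.6, 37.8, 31.9, 53.3 and 42.1 CPM. In cKO replicates 1 to 6 it was 23.8, 25.5, 25.4, 27.6, 26.9 and 30.2 CPM. Every cKO pool lay below every control pool, which holds for 3.13% of all genes tested, and the cKO pools were closer together than the controls. The control mean was 39.5 ± 7.81 CPM and the cKO mean 26.6 ± 2.21 CPM (SD, n = 6 pools each). The log2 fold change was -0.57 (SE 0.11, adjusted p = 0.00749), or 32.4% lower. As the libraries are from whole testes, they cannot tell fewer Pdgfc-expressing cells and less Pdgfc RNA per cell apart, and this holds for each gene below.

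The fall of Pdgfc was called in each of the 23 other fits, which changed the scaling, filter, test or set of libraries. In the 8 libraries with low Xist it was -0.61 (SE 0.16, adjusted p = 0.0424), where 7.08% of all genes were called. Its size depended more on the controls with high Ldha, which held the 3 highest Pdgfc levels of all libraries. Without those 3 controls the log2 fold change was -0.37 (SE 0.08, adjusted p = 0.0194), or 22.5% lower, in a fit that called 12.6% of all genes.

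The DNA just before the Pdgfc start site is shown because Pdgfc alone passed the edgeR test over all libraries. That of Pdgfra is shown because it is the most abundant member. Both are RefSeq sequences of GRCm38.p6 (mm10), 250 bases long, with no annotated exon base, on the plus strand, at chr3:81036166-81036415 for Pdgfc and chr5:75152001-75152250 for Pdgfra. The start site of the Pdgfra window lies before 75152291, where the count table begins the gene. Capitals mark a CArG box, the motif of serum response factor.
Pdgfc: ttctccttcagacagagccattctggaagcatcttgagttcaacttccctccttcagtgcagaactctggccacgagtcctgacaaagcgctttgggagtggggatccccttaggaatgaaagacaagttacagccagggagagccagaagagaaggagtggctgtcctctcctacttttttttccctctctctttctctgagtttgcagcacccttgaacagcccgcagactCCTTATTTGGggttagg
Pdgfra: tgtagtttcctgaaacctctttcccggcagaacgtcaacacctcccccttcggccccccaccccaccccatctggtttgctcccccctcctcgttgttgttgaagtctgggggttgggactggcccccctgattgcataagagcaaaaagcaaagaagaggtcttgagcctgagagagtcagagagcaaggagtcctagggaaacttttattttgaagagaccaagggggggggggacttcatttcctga
RefSeq start-site windows of 300 bases were found for 4 of the 6 genes, in 5 entries (Pdgfc, Pdgfra, Pdgfd and 2 for Pdgfa). None holds AGGTCA, the half-site of NR2F2, on either strand, and 16.3% of all 32851 such windows hold it. AGGTCANAGGTCA, a pair of half-sites with 1 base between them, which contains the half-site motif, is in 0.0396% of the windows and in none of the 5. The CArG box, whose pattern is its own reverse complement, was searched after the Pdgfc window had been read. It begins 17 bases before the Pdgfc start site, is absent from the other 4 windows and is in 1.63% of all windows. These matches describe the windows alone, and so few windows cannot tell whether NR2F2 binds these genes. The paper reports NR2F2 ChIP-seq of E14.5 testes, and binding was not analysed here.

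Pdgfa (Entrez Gene 18590, chr5:138976971-138994953, minus strand) is the Sertoli cell ligand of PDGFRA. It had 20.8, 24.2, 23.0, 26.9, 18.1 and 20.1 CPM in control replicates 1 to 6 and 20.1, 20.6, 18.7, 18.5, 17.8 and 16.0 CPM in cKO replicates 1 to 6. The groups overlapped, with 2 cKO pools below all controls. The means were 22.2 ± 3.18 and 18.6 ± 1.67 CPM (SD, n = 6 each), and the log2 fold change of -0.26 (SE 0.10) did not pass the test (adjusted p = 0.124). Without the 3 controls with high Ldha, which held the 3 lowest Pdgfa levels among the controls, it was -0.42 (SE 0.09) and passed (adjusted p = 0.0149).

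Pdgfd (Entrez Gene 71785, chr9:6168612-6377519, plus strand) encodes the latent ligand PDGF-D, which binds PDGFRB. Its control values were 16.1, 10.6, 10.9, 11.6, 20.1 and 15.5 CPM and its cKO values 10.5, 9.45, 12.3, 10.2, 10.9 and 11.8 CPM, in the order of the replicates. The controls fell into 3 high libraries, the same replicates 1, 5 and 6 that were high in Ldha, and 3 libraries in the range of the cKO pools. The log2 fold change was -0.37 (SE 0.15, adjusted p = 0.151) over all libraries, -0.24 without control replicate 5 (adjusted p = 0.287) and -0.03 (SE 0.09, adjusted p = 0.905) without the 3 controls.

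Pdgfb (Entrez Gene 18591, chr15:79995874-80014808, minus strand) encodes PDGF-B, the endothelial ligand of PDGFRB. It had 22.2, 14.6, 14.1, 18.8, 6.81 and 12.0 CPM in control replicates 1 to 6 and 23.7, 21.9, 19.4, 20.5, 18.9 and 13.8 CPM in cKO replicates 1 to 6. Control replicate 1 lay among the cKO pools, cKO replicate 6 lay among the controls, and control replicate 5 was the lowest of all libraries. The control mean was 14.8 ± 5.35 CPM and the cKO mean 19.7 ± 3.40 CPM (SD, n = 6 each), with a log2 fold change of 0.40 (SE 0.22) that did not pass the test (adjusted p = 0.266). In the 8 libraries with low Xist the 3 cKO pools (20.5 to 23.7 CPM) lay above the 5 controls (6.81 to 18.8 CPM), and the log2 fold change was 0.71 (SE 0.22, adjusted p = 0.0753). Without control replicate 5 it was 0.26 (SE 0.16, adjusted p = 0.374). Endothelial markers summed to 405 to 587 CPM in control and 393 to 510 CPM in cKO pools, with 1 of 11, the angiopoietin receptor Tek, called lower. Tek was not called in the 8 libraries with low Xist (adjusted p = 0.182), where Robo4, an endothelial guidance receptor, was called higher at 0.54 (adjusted p = 0.0282). The part of endothelial cells in the level of Pdgfb was not tested.

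Pdgfra (Entrez Gene 18595, chr5:75152291-75198204, plus strand) was the most abundant member in every library. It had 453, 584, 504, 577, 602 and 612 CPM in control replicates 1 to 6 and 510.3, 508, 414, 438, 307 and 323 CPM in cKO replicates 1 to 6. Control replicates 1 and 3 lay below cKO replicates 1 and 2, and the other 4 cKO pools lay below all controls. The means were 555 ± 63.2 and 417 ± 87.6 CPM (SD, n = 6 each), and the difference of -0.41 on the log2 scale (SE 0.13) did not pass the test (adjusted p = 0.0649). It passed when control replicate 1, cKO replicate 1 or cKO replicate 2 was left out, with adjusted p of 0.0237, 0.0486 and 0.0405, in fits that called 19.9%, 5.63% and 7.96% of all genes. By staining, the paper found PDGFRA protein unaltered in interstitial cells with or without NR2F2. It also counted fewer interstitial cells in cKO testes.

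Pdgfrb (chromosome 18 of mm10, from 61045150 to 61085067, plus strand, Entrez Gene 18596) had 230.2, 197, 189, 209.9, 121 and 171 CPM in control replicates 1 to 6. In cKO replicates 1 to 6 it had 139.9, 174, 133, 122, 90.5 and 89.4 CPM. Control replicate 5 lay below 4 of the 6 cKO pools, and only cKO replicates 5 and 6 lay below all controls. The log2 fold change was -0.58 (SE 0.17, adjusted p = 0.0535), from 186 ± 37.6 to 125 ± 32.2 CPM (SD, n = 6 each). It passed without control replicate 5 at -0.67 (adjusted p = 0.0182, with 7.61% of all genes called), without cKO replicate 2 at -0.70 (adjusted p = 0.0189) and without the 3 controls with high Ldha at -0.68 (adjusted p = 0.0363).

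DESeq2, the tool the authors used for this comparison, called both receptors as well as Pdgfc, with adjusted p of 0.0283 for Pdgfra, 0.0135 for Pdgfrb and 0.000181 for Pdgfc. It called 11.6% of the genes for which it gave an adjusted p. Both receptors were lowest in cKO libraries with high Xist. The 3 cKO pools with high Xist had 307 to 414 CPM of Pdgfra and 89.4 to 133 CPM of Pdgfrb, against 438 to 510.3 CPM and 122 to 174 CPM in the other 3 cKO pools. In the 8 libraries with low Xist the log2 fold change was -0.24 (SE 0.09, adjusted p = 0.1197) for Pdgfra and -0.29 (SE 0.17, adjusted p = 0.269) for Pdgfrb. The same 3 cKO pools had 50.2 to 75.4 CPM of Nr2f2, against 78.8 to 119 CPM in the other 3.

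**Figure D2:**
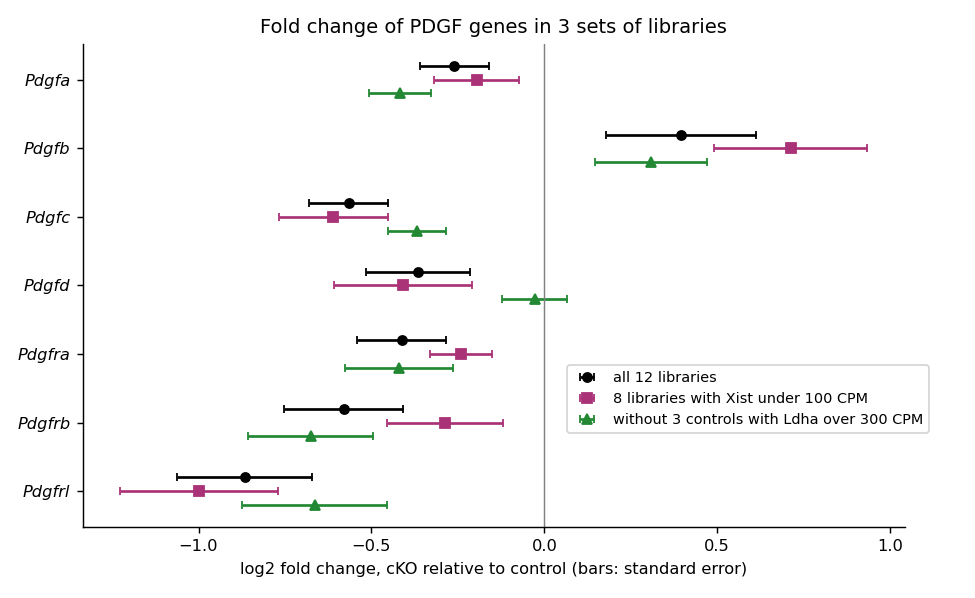
Log2 fold change of cKO relative to control with its SE for the 6 PDGF genes and the receptor-like gene Pdgfrl, fitted on all 12 libraries (circles), on the 8 with Xist below 100 CPM (squares) and without the 3 controls with Ldha above 300 CPM (triangles). Pdgfc stays between -0.61 and -0.37, the receptors are nearer to 0 in the 8 libraries, and Pdgfd is at -0.03 without the 3 controls.

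Markers of cells that could carry the PDGF genes were read against the 4.85% of all genes called lower and the 3.28% called higher. Of 12 interstitial markers 4 were called lower, Tcf21, Dcn, Wnt5a and Col3a1, and 1 higher, Adam23. The call of Col3a1 was lost in the 8 libraries with low Xist (adjusted p = 0.135). Their summed level was 5272 to 6611 CPM in control and 2981 to 5639 CPM in cKO pools, lowest in cKO replicates 5 and 6 as for Pdgfra. Of 6 fetal Leydig cell markers 4 were called lower, with sums of 1849 to 3140 and 1035 to 1995 CPM. Of 9 mural markers tested, beside Higd1b which did not pass the filter, Kcnj8 and Lgi1 were called lower, and Lgi1 was not called in the 8 libraries with low Xist (adjusted p = 0.0775). The mural sum was 294 to 498 CPM in control and 271 to 394 CPM in cKO pools, and control replicate 5, low in Pdgfrb, was the lowest control. Of 8 contractile markers 7 were called lower, with sums of 653 to 758 and 383 to 591 CPM that did not overlap. Actg2 and Mylk were not called in the 8 libraries with low Xist (adjusted p = 0.0604 and 0.166), which left 5 of 8. Of 8 surface epithelium markers, among them Aldh1a2 and Podxl, none was called lower and 1, Msln, was called higher (adjusted p = 0.0472, and 0.190 in the 8 libraries with low Xist). Their sum was 487 to 817 CPM in control and 522 to 846 CPM in cKO pools. The paper names Pdgfc, together with Aldh1a2 and Podxl, as a marker of its testicular epithelium cluster. Aldh1a2 and Podxl had log2 fold changes of -0.13 and 0.24 (adjusted p = 0.362 and 0.616). Of 5 mesonephric mesenchyme markers Osr1 and Hoxc10 were called lower, at log2 fold changes of -0.81 and -0.89 (adjusted p = 0.00430 and 0.00683). For both, all cKO pools lay below all controls, and both were also called in the 8 libraries with low Xist. The others, Itga8, Ntrk3 and Rxfp2, were not called, at 0.10, -0.59 and -0.32 (adjusted p = 0.689, 0.103 and 0.454). The list summed to 80.9 to 148.5 CPM in control pools, highest in replicates 5 and 6 as for Pdgfc, and to 96.6 to 110.2 CPM in cKO pools. Much of this sum was Itga8, with means of 77.74 CPM in control and 82.95 CPM in cKO pools. No marker of these lists had a mean of 0 in either group, and the part of these cell types in the PDGF differences was not tested.

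Levels were compared between genes per kilobase of exon. In control pools Pdgfra had 78.5 ± 8.92 and Pdgfrb 34.5 ± 6.96 CPM per kb (SD, n = 6), ahead of Pdgfc at 11.2 ± 2.22, Pdgfa at 10.8 ± 1.55, Pdgfb at 5.01 ± 1.82 and Pdgfd at 4.48 ± 1.19. The order Pdgfra, Pdgfrb, then the ligands held in each control library. Pdgfc exceeded Pdgfa in 3 of 6 control libraries and Pdgfb exceeded Pdgfd in 4 of 6, so those neighbours were not ordered. In cKO pools the values were 58.9 ± 12.4 for Pdgfra, 23.1 ± 5.95 for Pdgfrb, 9.03 ± 0.81 for Pdgfa, 7.55 ± 0.63 for Pdgfc, 6.69 ± 1.15 for Pdgfb and 3.44 ± 0.33 CPM per kb for Pdgfd. Pdgfa now exceeded Pdgfc in 5 of 6 libraries, and Pdgfb exceeded Pdgfd in 6 of 6. Of the summed level of the 4 ligands per kb, Pdgfc made up 35.6% ± 6.46 in control and 28.4% ± 3.59 in cKO pools, and Pdgfb 15.9% ± 5.31 and 24.9% ± 3.36 (SD, n = 6). Pdgfra made up 69.4% ± 6.41 and 72.0% ± 1.89 of both receptors.

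**Figure D3:**
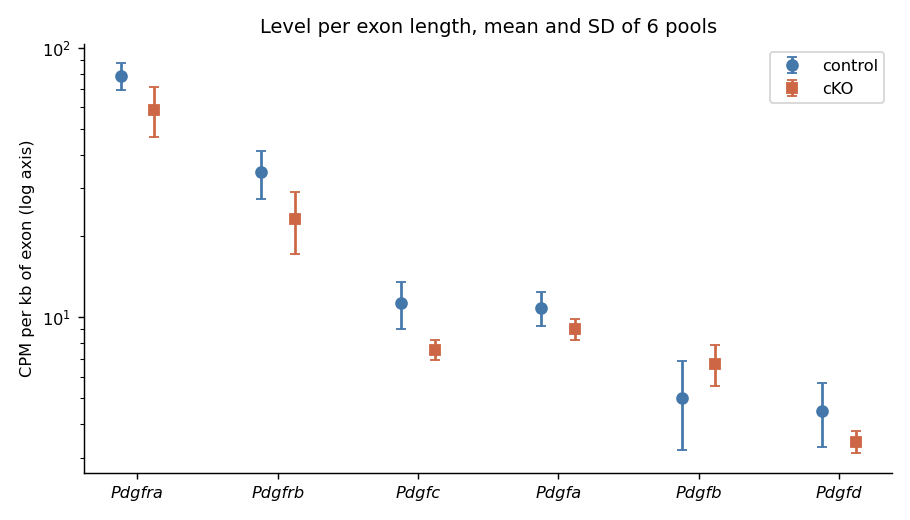
Mean ± SD of 6 pools of CPM per kb of exon for each PDGF gene, on a log axis, in control (circles) and cKO pools (squares). Pdgfra leads in both groups, at 78.5 and 58.9 CPM per kb, and Pdgfd has the lowest means, at 4.48 and 3.44. Pdgfb exceeded Pdgfd in only 4 of 6 control libraries.

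The balance of the family was compared as the log2 ratio of each member to Pdgfra within a library. This ratio depends on scaling between libraries only through its pseudocount of 0.5 CPM. The ratio of Pdgfb to Pdgfra was -5.27 ± 0.69 in control and -4.36 ± 0.19 in cKO pools (SD, n = 6), 0.91 higher in cKO pools (exact two-sided permutation test over all splits of the 12 pools, p = 0.0130, adjusted over 5 ratios p = 0.0649). Control replicate 1 was at -4.32 and lay above 5 of the 6 cKO pools. Without it the difference was 1.09 and passed (exact permutation test, adjusted p = 0.0108). In the 8 libraries with low Xist it was 1.02 and the 3 cKO pools (-4.50 to -4.39) lay above the 5 controls (-6.37 to -4.90), at an exact permutation p of 0.0357 (adjusted p = 0.179). With 3 against 5 pools the smallest p of the exact test is 0.0179, or 0.0893 after adjustment when 1 ratio alone reaches it, so that a lone ratio cannot pass there. The ratio to Pdgfra differed by 0.19 for Pdgfa, -0.11 for Pdgfc, 0.10 for Pdgfd and -0.16 for Pdgfrb, with adjusted p from 0.536 to 0.667 in the same exact test. So the ratio of Pdgfc to Pdgfra was not shown to differ between the groups, and without the 3 controls with high Ldha its difference was 0.08.

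Other genes of the pathway were taken from 5 lists, of which 4 hold genes that process the ligands, bind the receptors, act below them or restrain them, and 1 holds related growth factors and receptors. Of 74 genes tested 12 passed the test (16.2%, against 8.13% of all genes), 7 of them lower (9.46%, against 4.85%) and 5 higher (6.76%, against 3.28%) in cKO testes. The lists were written with earlier results of these data known, and 14 of the 74 genes are the related ones. These shares therefore describe the lists and are no independent support for an effect on the pathway. Of 8 genes that process PDGF ligands 2 were lower and 1 higher (median log2 fold change 0.04, against 0.003 over all genes tested). Both lower genes were the plasminogen activators that cut the latent ligands.

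Plat had 62.0, 58.6, 65.5, 61.7, 76.6 and 70.6 CPM in control replicates 1 to 6 and 49.9, 49.9, 50.2, 51.1, 57.0 and 52.4 CPM in cKO replicates 1 to 6. All cKO pools lay below all controls, and the log2 fold change was -0.35 (SE 0.07, adjusted p = 0.00855). Plau had 17.6 to 25.9 CPM in control and 10.9 to 15.5 CPM in cKO pools, again with no overlap, at -0.65 (SE 0.12, adjusted p = 0.00419). Both passed when any library was left out, in the 8 libraries with low Xist (adjusted p = 0.0307 and 0.00935) and without the 3 controls with high Ldha (adjusted p = 0.0134 and 0.0153). St14, the gene of the membrane protease matriptase, which also cleaves PDGF-D, was higher, at 1.94 ± 0.48 in control and 3.26 ± 0.67 CPM in cKO pools (log2 fold change 0.79, SE 0.19, adjusted p = 0.0175). The proprotein convertases Furin and Pcsk5, which process PDGF-A and PDGF-B, did not pass over all libraries (0.30 and 0.34, adjusted p = 0.259 and 0.115). Both did in the 8 libraries with low Xist, at 0.51 and 0.54 (adjusted p = 0.0498 and 0.0251).

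**Figure D4:**
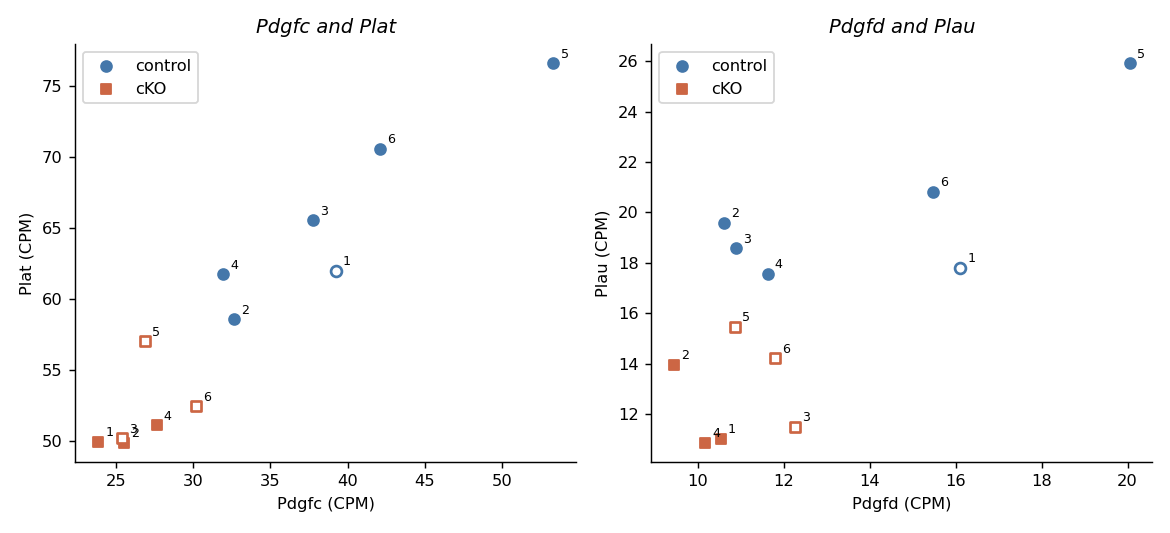
Level of each latent ligand against the protease that activates it, Pdgfc with Plat on the left and Pdgfd with Plau on the right, in CPM for the 12 pools labelled by replicate number (circles control, squares cKO, open symbols Xist above 100 CPM). For Pdgfc and Plat the 6 cKO pools lie below the 6 controls on both axes, whereas Pdgfd of control replicates 2, 3 and 4 (10.6 to 11.6 CPM) is in the range of the cKO pools.

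Of 10 genes whose products bind PDGF or its receptors 2 were lower and none higher. Pdgfrl encodes a secreted protein that resembles the extracellular part of the PDGF receptors. It had 6.14, 5.33, 5.28, 6.54, 7.27 and 9.69 CPM in control replicates 1 to 6 and 2.96, 4.43, 5.05, 2.70, 2.58 and 3.73 CPM in cKO replicates 1 to 6. The groups did not overlap, and its log2 fold change of -0.87 (SE 0.20, adjusted p = 0.0145) was -0.998 in the 8 libraries with low Xist (adjusted p = 0.0254) and -0.66 without the 3 controls with high Ldha, where it did not pass (adjusted p = 0.0637). Thbs1, the gene of the matrix protein thrombospondin 1, was lower by a log2 fold change of -0.67 (SE 0.18, adjusted p = 0.0338). Control replicate 1 had 189 CPM of it and the other controls 81.4 to 100.3 CPM, against 63.1 to 78.9 CPM in cKO pools. Without that library the change was -0.42 (adjusted p = 0.00236), in the 8 libraries with low Xist it was -0.39 (adjusted p = 0.0391), and the call was lost in 6 of 12 fits that each left out 1 library (adjusted p up to 0.0697). Sparc, Nrp1 and Lrp1, which bind PDGF or its receptors, had log2 fold changes of 0.19, 0.21 and -0.03 (adjusted p = 0.327, 0.163 and 0.913). Nrp1 passed in the 8 libraries with low Xist, at 0.35 (adjusted p = 0.0330).

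Of 30 adaptors and kinases below the receptors 1 passed, Pik3cb, the gene of a catalytic subunit of phosphoinositide 3-kinase. It rose from 19.5 ± 1.95 to 24.6 ± 2.18 CPM (SD, n = 6; log2 fold change 0.33, SE 0.09, adjusted p = 0.0298), with all cKO pools above all controls, as for 2.39% of genes tested. Leaving out 1 library ended this call in 8 of 12 fits, as did the restriction to the 8 libraries with low Xist (adjusted p = 0.114) and leaving out the 3 controls with high Ldha (adjusted p = 0.0539). The other 29, among them Grb2, Shc1, Ptpn11 and Plcg1, had log2 fold changes from -0.26 to 0.42, and the median of the list was 0.03. Without control replicate 1, 6 of the 30 passed, 1 lower and 5 higher, where 19.9% of all genes passed.

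Of 12 negative regulators of the receptors 3 were lower, with a median of 0.16 over the list. Cblb, a ubiquitin ligase of activated receptors, passed in the 8 libraries with low Xist, at 0.36 (adjusted p = 0.0251, against 0.141 over all libraries). Grb10, an adaptor that binds activated receptor kinases, fell from 791 ± 76.1 to 606 ± 61.3 CPM (SD, n = 6), with no overlap, at a log2 fold change of -0.38 (SE 0.08, adjusted p = 0.0105). In the 8 libraries with low Xist it did not pass, at -0.30 (adjusted p = 0.0641). Socs3, a feedback inhibitor of cytokine signalling, fell from 15.6 ± 1.58 to 11.9 ± 0.83 CPM (SD, n = 6) at -0.38 (SE 0.09, adjusted p = 0.0160). Sh3kbp1, which couples the ubiquitin ligase Cbl to endocytosis of receptors, fell by 0.49 on the log2 scale (SE 0.12, adjusted p = 0.0199).

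**Figure D5:**
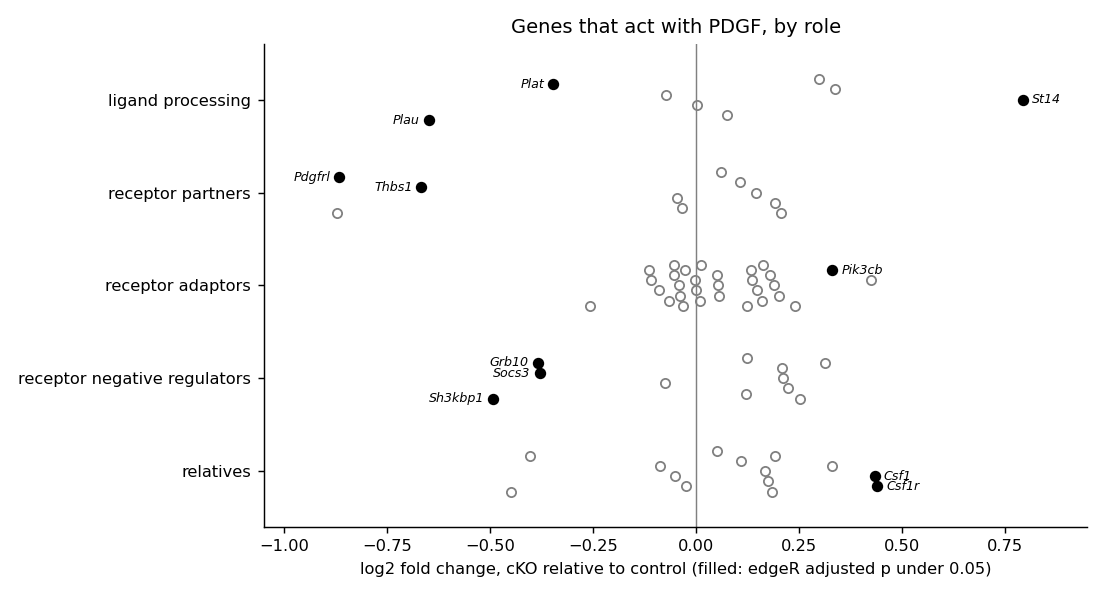
Log2 fold change of cKO relative to control for genes tested in the 5 lists, leaving out 1 that is not reported, with filled points for an adjusted p below 0.05 and the height within a row used only to separate points. Plau, Plat, Pdgfrl and Thbs1 are on the lower side at -0.65, -0.35, -0.87 and -0.67, St14 is at 0.79, and 29 of 30 adaptors are unfilled.

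The relatives of PDGF are the receptor kinases of the same class and the VEGF, CSF1 and KIT ligand families. Of 14 tested none was lower and 2 were higher, with a median of 0.14. In the 8 libraries with low Xist 3 were higher, with Vegfd, a lymphatic growth factor, added at 0.48 (adjusted p = 0.00470, against 0.33 and 0.138 over all libraries). Csf1r, the receptor of macrophages, rose from 14.8 ± 1.79 to 20.01 ± 1.32 CPM (SD, n = 6; log2 fold change 0.44, SE 0.09, adjusted p = 0.00749), and all cKO pools lay above all controls. Its ligand Csf1 rose by 0.43 on the log2 scale (SE 0.12, adjusted p = 0.0363). Leaving out 1 library ended this call in 8 of 12 fits. Macrophage markers, a list that holds Csf1r, were higher in 3 of 9 (2 of 9 in the 8 libraries with low Xist) and summed to 62.9 to 93.9 CPM in control and 84.4 to 105 CPM in cKO pools, and their part in the rise of Csf1r was not tested. St14, Thbs1, Socs3, Sh3kbp1, Csf1r and Csf1 all passed in the same direction in the 8 libraries with low Xist and in the 9 without the 3 controls with high Ldha. Kit, the receptor of germ cells and mast cells, and Kdr and Flt1, the VEGF receptors of vessels, did not pass (log2 fold changes 0.18, 0.11 and -0.02, adjusted p = 0.682, 0.682 and 0.964).

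The genes most like each member across the 12 libraries were taken by Pearson's r of log2 CPM, over the 11881 tested genes whose mean reached 5 CPM. As the highest of so many they are a description, and the libraries share the group difference and the libraries that stand apart. For Pdgfc they were Zfp185 (r = 0.976), the hedgehog co-receptor Gas1 (r = 0.967) and its own protease gene Plat (r = 0.949). For Pdgfd they were Tpi1 (r = 0.963), Cav2 (r = 0.958) and Ldha (r = 0.948), of which Tpi1 and Ldha encode glycolytic enzymes. For Pdgfra they were the luteinizing hormone receptor Lhcgr (r = 0.977), the chemokine Cxcl12 (r = 0.977) and Prss35 (r = 0.974). For Pdgfrb they were Spock2 (r = 0.988), Pakap (r = 0.983) and Coro2b (r = 0.972). For Pdgfb they were Parp4 (r = 0.985), Mical3 (r = 0.982) and Nckap5l (r = 0.980), and for Pdgfa Tspan14 (r = 0.958), Slc45a3 (r = 0.949) and Ephx1 (r = 0.948).

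No gene was among the 3 most like more than 1 member. Lhcgr, a marker of steroidogenic cells, had 48.5 to 71.6 CPM in control and 21.7 to 48.2 CPM in cKO pools and was lowest in cKO replicates 5 and 6, as was Pdgfra. Gas1 had 102 to 152 CPM in control and 76.6 to 97.8 CPM in cKO pools, and it was highest in control replicate 5 and, among cKO pools, in cKO replicate 6, as was Pdgfc.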

How the data were processed

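RNA-seq libraries of 12 pools of 3 testes (TruSeq Stranded mRNA) were analysed. The authors trimmed read pairs (Trim Galore 0.6.7), aligned them to mm10 (STAR 2.5) and counted them by strand on RefSeq Curated gene models (featureCounts, Subread 1.5.0-p1). The table the authors deposited holds these counts, not normalized. In the re-analysis, counts were scaled by TMM, filtered by filterByExpr (minimum count 10, minimum total 15) and compared by edgeR 4.0.16 (glmQLFit, glmQLFTest) in R 4.3.3, with no covariate. The standard error is the size of the log2 fold change divided by the square root of F. Ratios to Pdgfra used a pseudocount of 0.5 CPM. Exon lengths came from GENCODE M21 transcripts with RefSeq matches. Alternatives were other scalings and filters, DESeq2 1.42.0, limma-voom 3.58.1, a replicate block, Xist as a covariate, and leaving libraries out. The fits were tested on simulated data. The members, gene lists and tests were chosen with earlier results of these data known. Named were all members, up to 4 called genes per list by smallest p, the 3 genes most like each member, Nr2f2, Xist and markers. Pcsk5, Furin, Robo4, Msln, Cblb, Vegfd, Sparc, Nrp1, Lrp1, Kit, Kdr, Flt1, the adaptors listed without values and the description of Ldha were added after their values were seen. The same holds for the values of Itga8, Ntrk3, Rxfp2, Aldh1a2 and Podxl. The biological coefficient of variation between pools was 0.170, and counting error adds to it for genes of few counts, such as St14 and Pdgfrl, at a depth of 7044531 to 59404778 counts per library. Part of the results covered by the naming rule is not reported here.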

Additional observations from a re-analysis of the deposited data

Results flagged for a closer look

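Among 22 groups of 6 pools tested for a sample far from the others by Dixon's ratio, 1 was found, where chance gives about 1 in 20. The log2 ratio of Pdgfb to Pdgfra of cKO replicate 5 was -3.99, the highest of the 6 cKO pools, whose next value was -4.38. That library had 18.9 CPM of Pdgfb, inside the range of the other cKO pools, and 307 CPM of Pdgfra, the lowest of all libraries.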

How the results depend on the processing

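Over all genes 1266 were called, against 1919 by DESeq2, 2007 without the 3 controls with high Ldha (chosen after seeing the data), and 816 to 3106 when 1 library was left out, the highest without control replicate 1. Of the calls, 59.7% were lower in cKO testes, against 48.0% in the 8 libraries with low Xist. The count of PDGF members called was 1, against 3 by DESeq2, 3 without the 3 controls, 2 with a replicate block, 2 with Xist as a covariate (8.29% of all genes called) and 1 to 3 when 1 library was left out. The 12 pathway genes called became 7 with the replicate block and 8 to 23 when 1 library was left out. Pdgfra passed at -0.41 by DESeq2 and at -0.30 with Xist as a covariate, and ranged from -0.48 to -0.34 when 1 library was left out. Pdgfrb passed at -0.58 by DESeq2, at -0.59 with the replicate block (edgeR adjusted p = 0.00921, 5.98% of genes called) and at -0.68 without the 3 controls, and ranged from -0.70 to -0.50. Pdgfa passed at -0.42 without the 3 controls. The difference in the ratio of Pdgfb to Pdgfra ranged from 0.69 to 1.09. The difference of Pdgfc to Pdgfra turned from -0.11 to 0.083 without the 3 controls, and that of Pdgfd to Pdgfra from 0.10 to -0.14 in the 8 libraries with low Xist; neither passed in any fit, and the causes were not tested. Replicate numbers do not pair the pools by the labels: same-numbered pools correlated from -0.33 to 0.24 in their deviations, and 0 of 6 correlated best with their own number. The replicate block also ended the calls of, among others, Thbs1, Pik3cb, Socs3, Sh3kbp1 and Csf1.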
